A study of Mus musculus with 12 samples.

Results

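The comparison described here is between microglia lacking NHE1 and wild-type microglia of the contralateral (CL) hemisphere, the side of the brain without the lesion, of mice with an ischemic stroke. Its members were chosen by their column names in the raw count table, 3 libraries of conditional knockout (cKO) CL and 3 of wild-type (WT) CL, and they are 6 of the 12 libraries of the series. The other 6 libraries come from the ipsilateral (IL), lesioned hemisphere of the same 2 genotypes. The left middle cerebral artery was occluded for 60 min, and RNA was taken 72 h later from cells pulled out with beads against P2RY12. Mice called WT carried Cx3cr1-CreER+/- with an intact Nhe1, and cKO mice carried Cx3cr1-CreER+/- with Nhe1 f/f, so both genotypes hold the inducible Cre at Cx3cr1. Both genotypes received tamoxifen, at least 30 days before the occlusion, and the mice of the study were 2 to 3 months old. Monocytes of the blood also express Cx3cr1, and the wait after tamoxifen was meant to let newly made monocytes with an intact gene take their place. Every CL library comes from a brain with a stroke on the other side, and no sham-operated animal is among them. Each group holds 3 libraries from separate animals per the methods. The p-values rest on a single estimate of the spread, shared by all 12 libraries. The wider spread of WT CL, described below, is averaged in it with that of the other groups.

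NHE1 is a Na+/H+ exchanger of the plasma membrane that moves a proton out of the cell in exchange for a sodium ion. In microglia it offsets the acid load that activity of the NADPH oxidase leaves in the cytosol. Microglia are the resident macrophages of the brain: in the resting state they survey the tissue with fine processes and express genes such as P2ry12, Tmem119 and Cx3cr1, and after injury they can turn to cytokine release, engulfment of debris and handling of the lipid it contains.

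Libraries are named by genotype and the number in the column name, which no source used here ties to an animal or a batch. Values over the 6 CL libraries are given in a fixed order, WT231, WT233 and WT276 for WT and then cKO208, cKO272 and cKO278 for cKO. A level is in CPM, the count of a gene relative to the total of its library, after scaling of the libraries by the trimmed mean of M-values (TMM), and it is not divided by gene length, so levels are compared between libraries and not between genes. A difference is a log2 fold change of cKO CL over WT CL with the standard error (SE) of the model fit. In bulk RNA, fewer cells of a type and less RNA per cell cannot be told apart.

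The WT CL libraries were less alike than the cKO CL libraries, and WT276 and WT233 were the shallowest of the 6. WT CL held 12647526, 5155202 and 2091512 counts and cKO CL held 9743603, 16937855 and 20349883. Of the 53801 genes of the table, 25814, 39769 and 20559 had a count in the WT libraries and 45073, 41429 and 39722 in the cKO libraries. Across genes, log CPM correlated at r = 0.857 to 0.874 between the 3 cKO libraries and at 0.587 to 0.762 between the 3 WT libraries, as a description over genes, which are not replicates. Among 10602 tested genes with a mean of at least 10 CPM, WT276 stood over 4-fold above all other 5 CL libraries in 333 and over 4-fold below them in 1464, of which 536 had no count in it. WT231 stood above the others in 165 genes and below them in 178. The corresponding counts of genes above the rest were 6 for WT233, 0 for cKO208, 1 for cKO272 and 4 for cKO278. Counts with the libraries thinned to equal total counts are given below, and the part of depth in single genes was not tested.

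**Figure D1:**
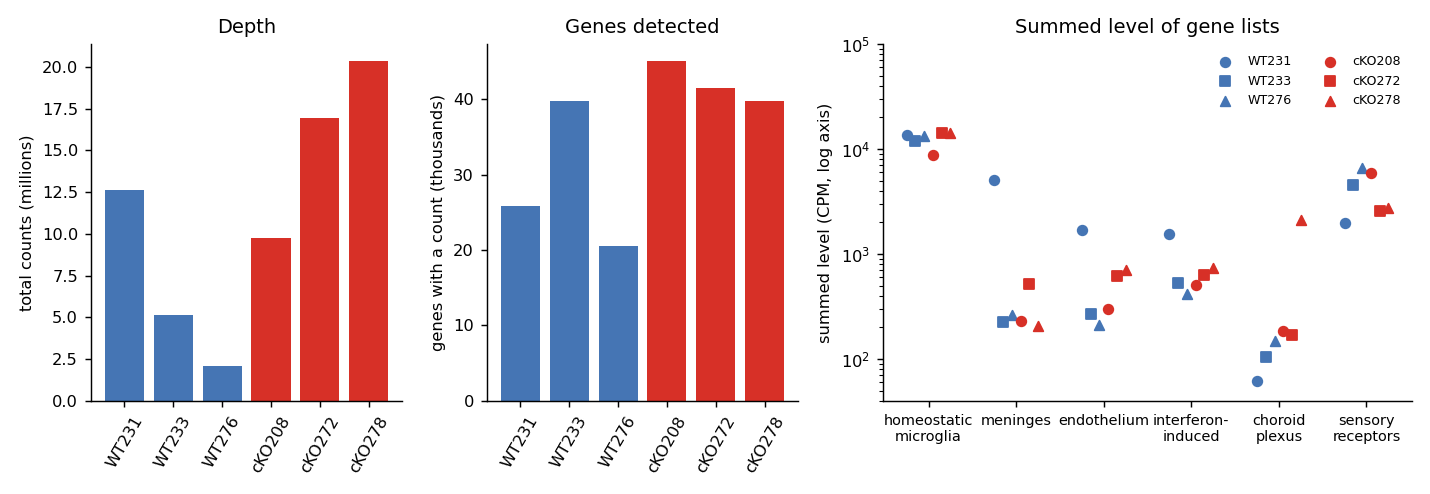
Total counts, genes detected and summed CPM of 6 gene lists in each of the 6 CL libraries, WT on the left and cKO on the right in each panel, each point or bar being 1 library. WT231 held 5107 CPM of meningeal genes against 206 to 519 CPM in the other 5 libraries, and cKO278 held 2121 CPM of choroid plexus genes against 61.9 to 187 CPM.

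The cells carried the markers of microglia in all 6 libraries. P2ry12, the purinergic receptor used for the sort, ran from 131 to 343 CPM, Tmem119 from 375 to 734 CPM and Csf1r, the receptor of the growth factor that microglia need to survive, from 1319 to 5122 CPM. Cx3cr1, the fractalkine receptor at whose locus the Cre sits, stood at 381, 2118 and 7240 CPM in WT and at 875, 2247 and 629 CPM in cKO, so that the spread within WT was wider than the distance between the groups. Siglech lay between 305 and 755 CPM. A list of 24 homeostatic microglia genes summed to 11864 to 13456 CPM in WT and to 8811 to 14291 CPM in cKO. Y-linked Kdm5d and Uty had counts in all 6 libraries, and Xist was at most 1.34 CPM.

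A count per gene adds up all exons and does not resolve a floxed exon, so the genotype labels were not checked, and cKO and WT stand here for the libraries so labelled.

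None of 13 other sodium-proton exchangers and their partners passed a test. Of these genes 6 had a log2 fold change above 0 and 7 below, with a median of -0.27 beside 0.23 over all tested genes. The sign of the median turned without any 1 of the WT libraries or cKO278, and it was 0.87 without WT231. Slc9b2, an exchanger of the NHA family, was the member whose groups did not overlap, with cKO lower, as in 1.38% of all tested genes. It stood at 42.6, 9.90 and 12 CPM in WT and at 7.44, 4.34 and 7.38 CPM in cKO, a difference of -1.76 (SE 0.96) that became -0.70 without WT231. Slc9a5, which encodes NHE5, an exchanger best known from neurons, stood at 10.2, 28 and 4.11 CPM in WT and at 27.7, 33.0 and 32.6 CPM in cKO, with WT233 inside the cKO range. Slc9a9, an exchanger of recycling endosomes, differed by 0.71 (SE 0.47). Chp1, which encodes a calcineurin-like protein that NHE1 needs at the membrane, stood at 24.6, 9.45 and 0.293 CPM in WT and at 13.7, 19.8 and 23.7 CPM in cKO, so that the WT values spanned those of cKO.

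Among 15 genes of bicarbonate, lactate and proton transport, 3 lay past the thresholds of the study, which ask for a change of more than 2-fold with p under 0.05 before adjustment, and all 3 were lower in cKO. Over all 35674 tested genes, 514 (1.44%) met the same thresholds in that direction, and 3.20% of those of at least 10 CPM did. Slc4a4, a sodium-bicarbonate cotransporter that astrocytes express strongly, stood at 114, 17.5 and 47.8 CPM in WT and at 23.3, 17.2 and 19.4 CPM in cKO (-1.59, SE 0.70). Slc4a3, an anion exchanger, stood at 77.9, 29.2 and 137 CPM in WT and at 33.8, 29.6 and 23 CPM in cKO (-1.50, SE 0.58). Car13, a cytosolic carbonic anhydrase, stood at 31.7, 0.900 and 0.293 CPM in WT and at 2.88, 2.69 and 0.240 CPM in cKO (-2.52, SE 1.18). In each of these genes WT233 lay within or beside the cKO range, and the high values came from WT231 or WT276. Leaving out both of those libraries, a setting chosen after seeing the data, keeps WT233 as the sole WT CL library, which is then assumed to vary as the other groups do. The differences were then 0.14 for Slc4a4, -0.07 for Slc4a3 and 1.02 for Car13. Every cKO value lay above every WT value in 2 of the 15 genes, beside 9.27% of all tested genes. Hvcn1, the voltage-gated proton channel that lets protons out alongside the NADPH oxidase, was the abundant gene of these 2. It stood at 27.2, 33.6 and 21.4 CPM in WT and at 42.4, 53.3 and 53.3 CPM in cKO, and its difference of 0.86 (SE 0.46) did not pass the thresholds. The lactate carriers Slc16a1 and Slc16a3 differed by 0.43 (SE 0.65) and 0.44 (SE 0.45), with overlapping groups.

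**Figure D2:**
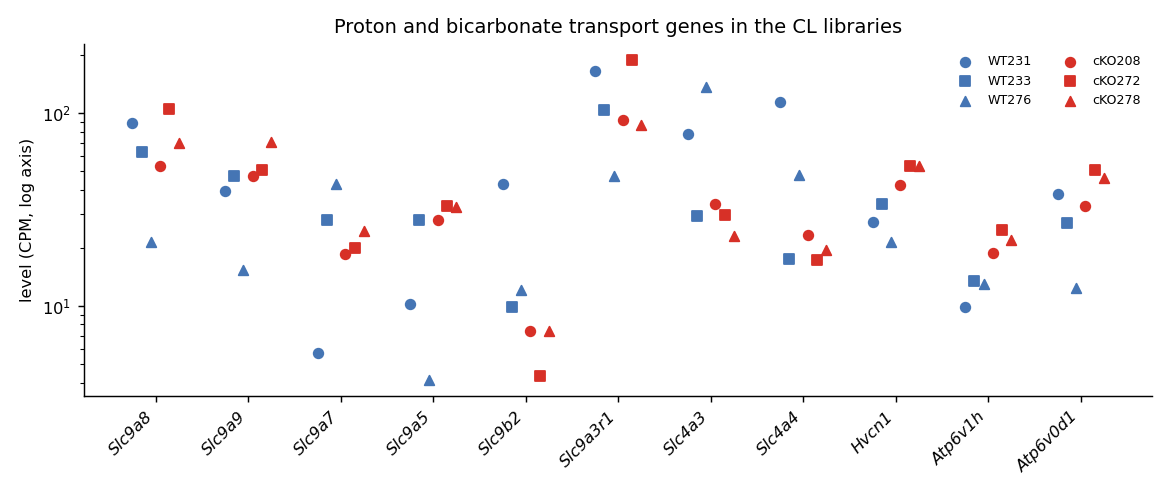
Level in CPM on a log axis of 11 genes of acid and base transport in each of the 6 CL libraries, with WT and cKO in separate columns and each point 1 library. Slc9a5 overlaps between the groups, at 4.11 to 28 CPM in WT and 27.7 to 33 CPM in cKO, whereas Hvcn1 lies at 21.4 to 33.6 CPM in WT and 42.4 to 53.3 CPM in cKO.

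The subunits of the vacuolar proton pump, which acidifies lysosomes and phagosomes, had a log2 fold change above 0 in 14 of 16, with a median of 0.73, and none passed the thresholds. Over all tested genes 21164 of 35674 were above 0, with a median of 0.23. Every cKO value lay above every WT value in 1 of the 16 subunits, beside 9.27% of all tested genes. Atp6v1h, a subunit of the cytosolic sector, was the member without overlap, at 9.85, 13.5 and 12.9 CPM in WT and 18.8, 24.6 and 21.9 CPM in cKO (0.85, SE 0.55). Atp6v0c, the proton-carrying ring subunit, stood at 165, 135 and 9.10 CPM in WT and at 151, 352 and 117 CPM in cKO, with WT276 far below the rest. Without WT231 and WT276 the median of the list was 0.36, beside 0.06 over all tested genes under that setting. It was 0.36 as well without WT276 alone, beside 0.14 over all tested genes.

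Across the transcriptome, no gene passed edgeR's quasi-likelihood test at an adjusted p under 0.05 (0 of 35674, 0%), and the lowest adjusted p was 1. An unadjusted p under 0.05 was reached by 1685 genes. DESeq2, the tool of the study, called 27 genes (0.0757%), 17 higher and 10 lower in cKO, and limma-voom with quality weights called 0. With no filter on low counts edgeR called 22 genes, among them Ttr, Enpp2 and Chil3, which were higher in cKO, and Igfbp6, Ptgds, Cdh1, Ifit1, Col3a1 and Fn1, which were lower, all described below or among the closing observations. Without WT233 edgeR called 29 genes, all higher in cKO, and the study's thresholds were then met by 5547 higher and 976 lower genes. Of these 29 the genes of at least 10 CPM were Enoph1, an enzyme of methionine salvage, and the gene model Gm17907. Enoph1 stood at 0.522, 12.7 and 0 CPM in WT and at 14.9, 17.0 and 23.9 CPM in cKO, so that the omitted library was the WT library nearest to cKO. With the study's thresholds in the edgeR fit, 1166 genes (3.27%) were higher in cKO beside the 514 lower. With other scalings of the same counts the split was 1041 higher and 712 lower (RLE factors) and 975 higher and 1002 lower (TMM factors from genes of at least 50 CPM). With every library thinned to the 2091512 counts of the smallest, 170 genes were higher and 136 lower among the 19647 then tested. Without WT231 and WT276, with WT233 alone in its group and the spread taken from the other groups, 335 were higher and 168 lower, of which 122 and 44 were among the genes counted with all libraries. The 3 cKO values all lay above the 3 WT values in 3306 genes (9.27%) and all below them in 494 (1.38%).

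The genes counted as higher and as lower were of different kinds. Those higher had a median level of 0.770 CPM, 31.6% were protein coding, and 748 carried names of gene models. In 640 of the 1166 (54.9%) no WT library had a count, and in 837 (71.8%) neither WT231 nor WT276 had a count. Those lower had a median level of 14.1 CPM and 64.0% were protein coding. Their highest library was WT276 in 358, WT231 in 128 and WT233 in 28 of the 514. The median log2 fold change was 0.23 over all tested genes, 1.22 in 7752 genes under 1 CPM and 0.02 in 10602 genes of at least 10 CPM. With genes that had no count in any library of 1 group set at the bound that 3 counts over the group allow, the median over all tested genes stayed at 0.23 and that under 1 CPM was 1.19. Under the RLE and the TMM factors from abundant genes the median over all genes was 0.14 and 0.13.

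Among genes of at least 10 CPM the thresholds were met by 122 genes higher in cKO (1.15%) and 339 lower (3.20%). By the lack of overlap the larger count was on the other side, with 399 genes (3.76%) higher in every cKO library than in any WT library and 238 (2.24%) lower.

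**Figure D3:**
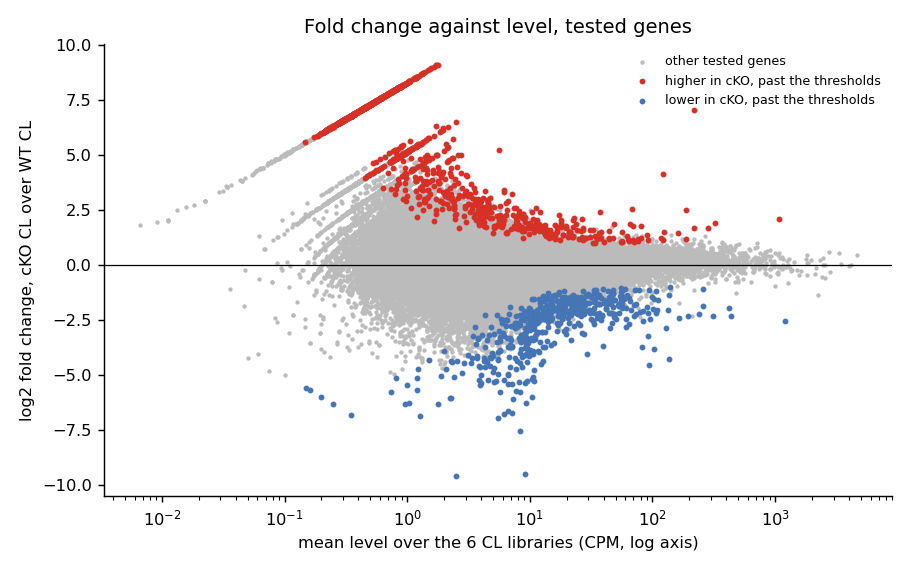
Log2 fold change of cKO CL over WT CL against the mean level over the 6 CL libraries in CPM on a log axis, each point 1 of 35674 tested genes, with genes past the study's thresholds in color. Most of the 1166 higher genes sit at low levels, with a median of 0.770 CPM, and the 514 lower genes sit further right, with a median of 14.1 CPM.

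The genes with the lowest p-values among those higher in cKO, of at least 10 CPM and with no overlap of the groups, were a mixed set. They held a choroid plexus gene, a stress-induced inhibitor of growth signaling, receptors for bacterial RNA and modified lipoprotein, and enzymes of inositol phosphates and ubiquitin-like conjugation. Since the order of p and the lack of overlap chose these genes, their values are a description. For the same reason their sign was fixed in advance when libraries were left out, and only the size of the difference could move.

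Ttr, which encodes the thyroid hormone carrier transthyretin and is the hallmark transcript of choroid plexus epithelium, had the lowest p of all tested genes (8.99e-05, adjusted p = 1 in edgeR's quasi-likelihood test). It stood at 2.54, 2.85 and 4.69 CPM in WT and at 42.5, 48.4 and 1220 CPM in cKO, a difference of 7.06 (SE 1.49) that became 3.79 without cKO278. DESeq2 gave it an adjusted p of 0.033, and edgeR with no filter on low counts one of 3.89e-16. The level of cKO278 was far above that of the other 2 cKO libraries, which in turn lay above all WT libraries. A list of 13 choroid plexus genes, chosen after seeing the data, summed to 61.9, 105 and 148 CPM in WT and to 187, 168 and 2121 CPM in cKO. All 4 genes of at least 10 CPM in which cKO278 stood over 4-fold above the other CL libraries belonged to it, namely Ttr, Enpp2, Clic6 and Htr2c. This is a description, since the list was chosen after its values were seen. Another list, of 8 choroid plexus and ependyma genes, summed to 90.1, 53.5 and 32.0 CPM in WT and to 101, 96.9 and 1428 CPM in cKO. Its median was 1.03, or 0.42 without cKO278, and 2 members were higher past the thresholds, beside 3.27% of all tested genes. Enpp2, the enzyme autotaxin that makes lysophosphatidic acid, stood at 6.12, 8.10 and 26.1 CPM in WT and at 24.6, 37.8 and 629 CPM in cKO. Without cKO278 the differences were 1.23 for Enpp2, 0.70 for Clic6 and 0.75 for Htr2c. The part of choroid plexus RNA in the value of Ttr was not tested.

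Ddit4, which encodes REDD1, an inhibitor of mTORC1 that rises with hypoxia, glucocorticoid and other stress, stood at 14.2, 8.40 and 12.9 CPM in WT and at 58.2, 115 and 14.8 CPM in cKO (2.40, SE 0.69). The cKO278 library was hardly above WT, and without cKO272 the difference was 1.62. The other genes of a list of 18 hypoxia and HIF targets did not pass the thresholds, and the median of the list was 0.17, or -0.12 without WT276. Ipmk, an inositol polyphosphate multikinase, had no library standing apart. It stood at 18.8, 17.4 and 22.6 CPM in WT and at 42.8, 67.7 and 48.7 CPM in cKO (1.44, SE 0.44), and the difference ran from 1.22 to 1.69 when any single CL library was left out.

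Several receptors of innate immunity belonged to this group. Msr1, the class A scavenger receptor that takes up modified low-density lipoprotein and bacterial products, stood at 6.04, 2.85 and 0.293 CPM in WT and at 10.6, 29.1 and 19.1 CPM in cKO (2.58, SE 0.77). Tlr13, the endosomal receptor for bacterial ribosomal RNA, stood at 8.65, 11.8 and 6.45 CPM in WT and at 18.3, 28.2 and 46.2 CPM in cKO (1.77, SE 0.60). Cd300lf, an inhibitory receptor for phospholipids, stood at 16.6, 21.4 and 11.7 CPM in WT and at 26.2, 96.8 and 24.5 CPM in cKO, with cKO272 setting most of its difference of 1.56 (0.61 without that library). In Msr1 and Tlr13 no single cKO library carried the difference, and leaving out any CL library left it at 2.08 to 3.57 for Msr1 and at 1.36 to 2.12 for Tlr13. Gpr84, a receptor for medium-chain fatty acids that is on the list of homeostatic microglia, had a mean of 7.83 CPM over the 6 libraries and so is not in this set. It stood at 2.76, 4.2 and 2.35 CPM in WT and at 13.1, 14.1 and 10.6 CPM in cKO (2.01, SE 0.64), with every cKO library above every WT library.

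The rest of the higher set served other functions. Serac1, an enzyme of phosphatidylglycerol remodeling where mitochondria meet the endoplasmic reticulum, stood at 4.25, 6.60 and 0.293 CPM in WT and at 20.6, 23.4 and 17.5 CPM in cKO (2.42, SE 0.72). Ube2f, an enzyme that conjugates the ubiquitin-like protein NEDD8 to cullins, stood at 48.2, 75.1 and 30.5 CPM in WT and at 89.6, 184 and 116 CPM in cKO (1.34, SE 0.48). Fam49b, which encodes CYRI-B, a brake on the RAC1-driven remodeling of actin, stood at 75.9, 103 and 19.1 CPM in WT and at 115, 217 and 218 CPM in cKO (1.47, SE 0.53). Fgd4, an activator of CDC42, differed by 1.53 (SE 0.53) and Nabp1, a single-stranded DNA binding protein, by 1.49 (SE 0.53). In 12 of the 15 genes of this set WT276 was the lowest library, and it is the shallowest of the 6. Without WT231 and WT276 the difference was 1.60 for Serac1, 1.59 for Ipmk, 1.38 for Tlr13 and 2.78 for Msr1. These values are given for some of the 15 genes, and their sign was fixed by the choice of genes without overlap. Serac1 and Msr1 reached a mean of 10 CPM only through their cKO libraries.

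**Figure D4:**
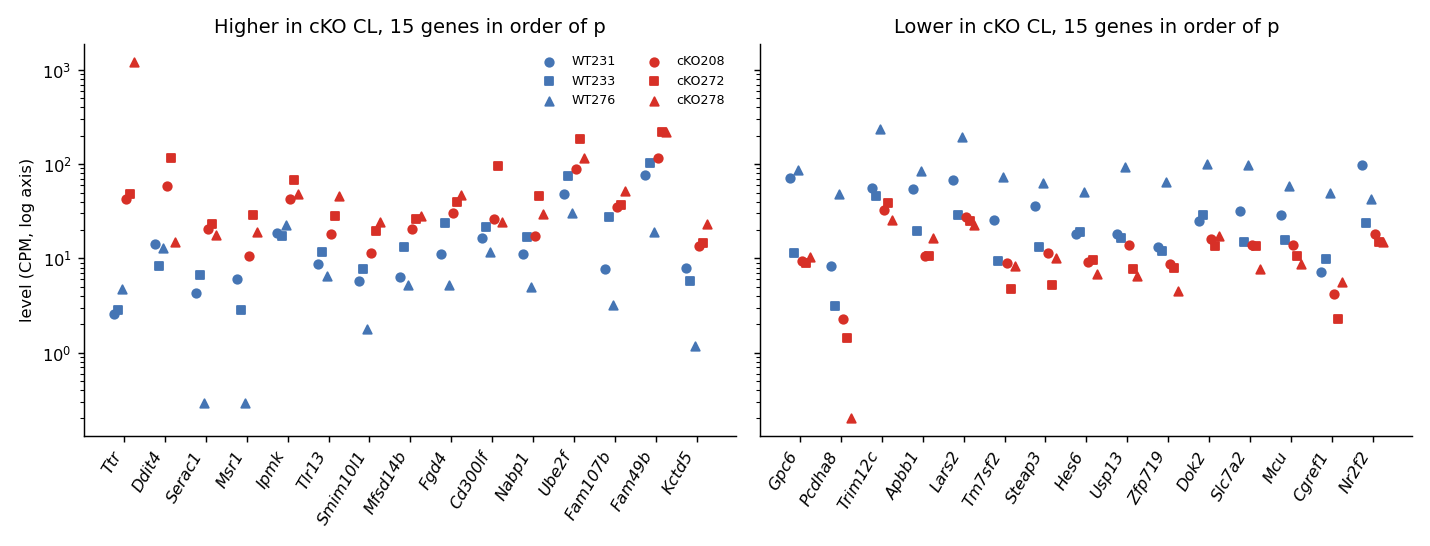
Level in CPM on a log axis of the 15 leading higher and the 15 leading lower genes in each of the 6 CL libraries, each point 1 library and the groups told apart by color. Ipmk shows 17.4 to 22.6 CPM in WT against 42.8 to 67.7 CPM in cKO, while in most of the lower genes WT276 is the uppermost point, as in Trim12c at 238 CPM against 25.8 to 56.5 CPM elsewhere.

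The leading genes lower in cKO were again mixed, and their pattern among the libraries was more uniform than that of the higher genes. They held a heparan sulfate proteoglycan, a protocadherin, enzymes and transporters of mitochondria, sterols and iron, and transcription factors. WT276 was the highest library in 14 of the 15 genes, and WT231 was in Nr2f2.

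Gpc6, a glypican that carries heparan sulfate at the cell surface, stood at 70.6, 11.4 and 86.8 CPM in WT and at 9.38, 9.0 and 10.3 CPM in cKO (-2.55, SE 0.74). Its WT233 level was close to the cKO level, and without WT231 and WT276 the difference was -0.28. Nr2f2, the transcription factor COUP-TFII of venous and mesenchymal cells, stood at 98.3, 23.8 and 43.1 CPM in WT and at 18.0, 14.9 and 15.1 CPM in cKO (-1.79, SE 0.67). Apbb1, an adaptor of the amyloid precursor protein, stood at 54.8, 19.3 and 84.2 CPM in WT and at 10.7, 10.6 and 16.4 CPM in cKO (-2.07, SE 0.68). In all these genes the cKO libraries lay close together and the WT libraries were spread over a wide range.

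Metabolic genes of this set had the same form. Mcu, the pore of the mitochondrial calcium uniporter, stood at 28.8, 15.7 and 58.7 CPM in WT and at 14, 10.5 and 8.78 CPM in cKO (-1.63, SE 0.60). Lars2, the mitochondrial leucyl-tRNA synthetase, stood at 68.4, 28.6 and 195 CPM in WT and at 27.5, 25.2 and 22.5 CPM in cKO (-1.95, SE 0.65). Tm7sf2, a sterol reductase of cholesterol synthesis, stood at 25.4, 9.30 and 73.6 CPM in WT and at 8.91, 4.72 and 8.38 CPM in cKO (-2.29, SE 0.77). Steap3, a ferrireductase of the transferrin cycle, differed by -2.06 (SE 0.71) and Slc7a2, a carrier of arginine, by -2.04 (SE 0.73). Trim12c, a member of the TRIM family, stood at 56.5, 45.4 and 238 CPM in WT and at 32.3, 39.0 and 25.8 CPM in cKO (-1.80, SE 0.58), which became -0.72 without WT276. The same omission took Usp13, a deubiquitinase, from -2.18 to -1.0 and Zfp719 from -2.09 to -0.91. Pcdha8 (-3.93) and the gene model Gm3695 (-4.79), which like Ttr were called by DESeq2 and reached 10 CPM, stood highest in WT276 as well, at 48.1 and 59.3 CPM. The protocadherins of this cluster share exons, so reads could be split between them in the counting.

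The 8 gene lists plotted by the study, for the LXR/RXR pathway, phagocytosis, phagolysosomal function, lipid metabolism, disease-associated microglia, glycolysis, the TCA cycle and oxidative phosphorylation, were chosen by the study on this series and are not independent evidence of a direction. In CL, 1 of their members lay past the thresholds, higher in cKO, beside 3.27% of all tested genes. Of the 8 lists, 5 had a median above the 0.23 of all tested genes, as did 26 of all 51 lists compared. Over tested genes of at least 10 CPM the median was 0.02.

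Of the phagocytosis genes, 11 of 12 had a log2 fold change above 0, with a median of 0.57. The member past the thresholds was Tlr13. Tlr2, a receptor for bacterial lipoproteins, stood at 23, 34.6 and 34.0 CPM in WT and at 32.2, 80.4 and 54.6 CPM in cKO (0.87, SE 0.47). Itgb2, the beta chain of complement receptor 3, stood at 287, 266 and 147 CPM in WT and at 234, 554 and 346 CPM in cKO (0.70, SE 0.45). Itgam, which encodes the alpha chain of that receptor, was the member below 0, at 218, 307 and 562 CPM in WT and 198, 305 and 212 CPM in cKO (-0.60, SE 0.46). Both chains overlapped between the groups. C1qa, of the complement trigger C1q, differed by 0.38 (SE 0.46) and Cd68, a lysosomal membrane protein of phagocytes, by 0.43 (SE 0.56). In IL the median of this list was 1.09, and 5 of 12 members lay past the thresholds, all higher, beside 0.334% of all tested genes and a median of -0.24 over them. The interaction of genotype and hemisphere had an adjusted p of 1 in edgeR's quasi-likelihood test for Tlr13 and for Tlr2.

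Of the 13 LXR/RXR genes, which serve sterol sensing and export, 10 were above 0, with a median of 0.33. Abcg1, a cholesterol exporter, stood at 77.4, 66.7 and 12 CPM in WT and at 80.0, 106 and 81.1 CPM in cKO, without overlap (0.77, SE 0.54). Abca1, its partner in export to lipoproteins, stood at 525, 524 and 347 CPM in WT and at 446, 788 and 633 CPM in cKO (0.42, SE 0.45). Without WT276 the difference was 0.25 for Abcg1 and 0.21 for Abca1. Phagolysosomal genes had a median of 0.49, with 8 of 9 above 0, and those of disease-associated microglia had 0.33, with 10 of 12 above 0. These medians moved with single libraries, to 0.05 without WT276 and 1.01 without WT231 for the phagolysosomal genes, and to 0.84 without WT231 and 0.13 without cKO278 for those of disease-associated microglia. Lipid metabolism had a median of 0.49 over 11 tested genes, 6 of them above 0, and -0.07 without WT231 and WT276.

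The energy metabolism lists were near or under 0. Glycolysis had a median of 0.05, which was -0.05 with RLE factors and -0.10 with TMM factors from abundant genes. The TCA cycle had 0.07, which was 0.00 and -0.11 under those scalings. Without WT276 the medians were -0.22 for glycolysis and -0.50 for the TCA cycle, and without WT231 they were 0.58 and 0.80. Oxidative phosphorylation had a median of -0.34, below 0 under each of the scalings run, with 5 of 15 members above 0. Without WT231 and WT276 its median was 0.27, on the other side of 0. The wider families of nuclear-encoded subunits, matched by symbol, had a median of 0.19 with 20 of 37 above 0 for complex I, and of 0.04 with 27 of 48 above 0 for complexes II to V, the latter being -0.04 with RLE factors and -0.13 with TMM factors from abundant genes. Without WT276 the medians were -0.23 and -0.20. The mitochondrially encoded mt-Nd2, of complex I, stood at 1422, 1024 and 2391 CPM in WT and at 1141, 1172 and 426 CPM in cKO (-0.82, SE 0.48). The high value was that of WT276 and the low one that of cKO278. Over the 14 tested genes of the mitochondrial genome the median was -0.47, with 2 above 0, and it was 0.00 without WT231 and WT276. Among the nuclear-encoded members were Atp5b at 0.00 (SE 0.53), Sdha at 0.01 (SE 0.52) and Cox4i1 at 0.32 (SE 0.58). Ndufa13, of complex I, stood at 50.5, 11.4 and 41.7 CPM in WT and at 12.1, 16.5 and 19.8 CPM in cKO (-1.09, SE 0.60). The reads of mitochondrial DNA were removed by the authors before counting, so the level of these genes is what that step left.

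**Figure D5:**
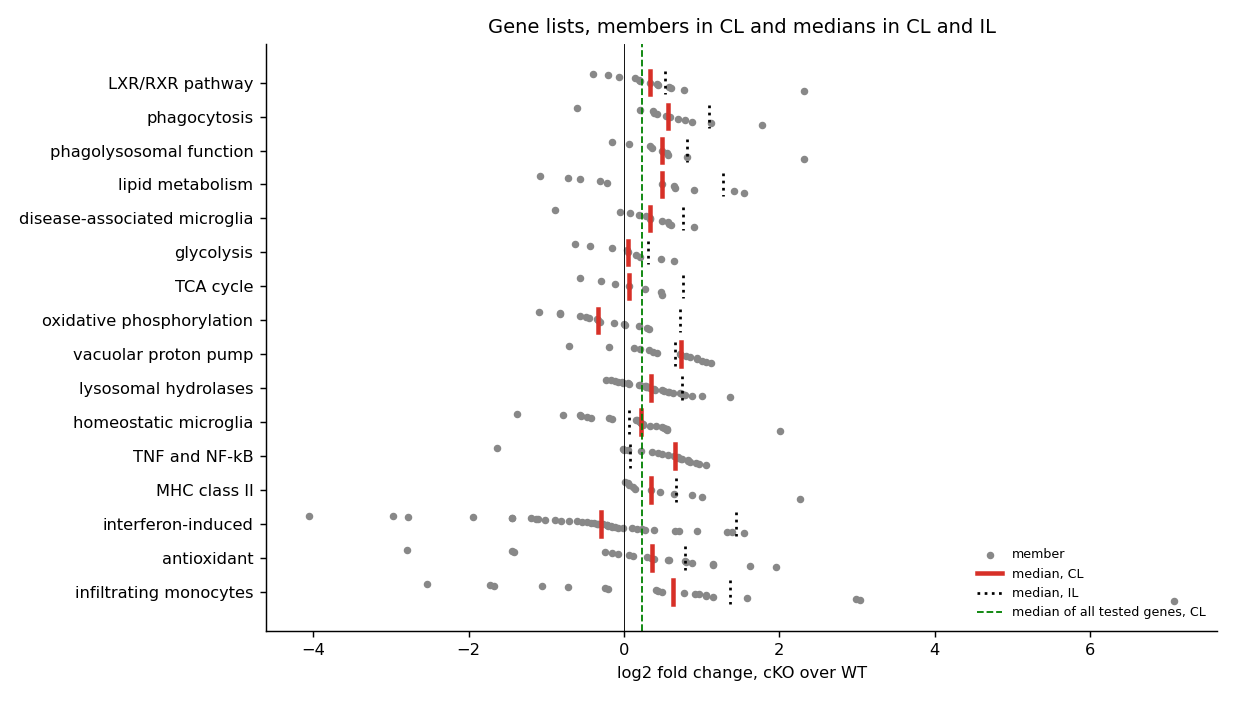
Log2 fold change of cKO over WT for 16 gene lists, each grey point 1 member in CL, with the median of the list in CL as a red bar, its median in IL as a dotted bar and the median of all tested genes in CL as a dashed line. Oxidative phosphorylation stands at -0.34 in CL and 0.72 in IL, the interferon-induced genes at -0.30 in CL and 1.44 in IL, and the TNF and NF-kB genes at 0.66 in CL and 0.08 in IL.

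In the lists of lysosomal, sterol and homeostatic microglia genes, Nsdhl and Gpr84 lay higher past the thresholds, beside 3.27% of all tested genes. Of 30 lysosomal hydrolases and related genes, 24 were above 0, with a median of 0.35 and none past the thresholds. Ctsc, the cathepsin that activates granzymes and other serine proteases, stood at 76.6, 67.9 and 17.9 CPM in WT and at 49.2, 120 and 159 CPM in cKO (1.01, SE 0.56). Its lowest value was that of WT276. Among 22 genes of sterol synthesis, Nsdhl, a dehydrogenase that acts on methylated sterols, was past the thresholds, at 0.298, 0.750 and 0.587 CPM in WT and 2.81, 2.74 and 8.70 CPM in cKO (3.16, SE 1.0), with 2 to 5 counts in each WT library. The homeostatic list had a median of 0.22, with 16 of 24 above 0, and Gpr84 was its member past the thresholds. Its median was -0.09 without WT276 and -0.12 without cKO278. Gpr84 is not among the defining microglia markers used here, and of those P2ry12 and Tmem119 did not pass. P2ry12 stood at 245, 175 and 343 CPM in WT and at 131, 131 and 284 CPM in cKO (-0.48, SE 0.56), with overlap. Tmem119 differed by 0.15 (SE 0.47) and Trem2 by 0.19 (SE 0.45). The 95% interval was -1.57 to 0.61 for P2ry12 and -0.76 to 1.07 for Tmem119, a width that does not show equal levels.

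Genes of TNF and NF-kB signaling had a log2 fold change above 0 in 18 of 20, against 21164 of all 35674 tested genes. Their median was 0.66, beside 0.23 over all tested genes. Past the thresholds lay 1 member, higher in cKO, beside 3.27% of all tested genes. That member was Tnf, which stood at 43.9, 34.5 and 47.8 CPM in WT and at 54.7, 159 and 48.5 CPM in cKO (1.06, SE 0.51). Its groups did not overlap, but cKO278 lay next to WT276, and without cKO272 the difference was 0.30. Tnfaip3, a feedback inhibitor of NF-kB, stood at 387, 512 and 150 CPM in WT and at 449, 1024 and 526 CPM in cKO (0.93, SE 0.50). Cebpb, a transcription factor of myeloid activation, stood at 103, 62.5 and 74.8 CPM in WT and at 115, 224 and 128 CPM in cKO (0.96, SE 0.48). In each of the 3 genes cKO272 was the highest library. Ptgs2, which encodes the inducible cyclooxygenase, went the other way, at 13.4, 6.0 and 22.9 CPM in WT and 1.68, 2.58 and 9.22 CPM in cKO (-1.63, SE 0.79). The median of the list was 0.27 without cKO272, 0.30 without WT276 and 0.27 without WT231 and WT276 together.

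Ccl3, a chemokine of activated microglia, was the member past the thresholds among 12 CC chemokines, beside 3.27% of all tested genes higher past them. It stood at 36.3, 83.1 and 23.2 CPM in WT and at 60, 161 and 97.3 CPM in cKO (1.16, SE 0.54), and WT233 lay inside the cKO range. Ccl4, its neighbor in the genome, differed by 0.74 (SE 0.52). Il1rap, the coreceptor of interleukin 1, was lower in cKO past the thresholds, at 13.6, 12.3 and 122 CPM in WT and 12.3, 9.28 and 13.2 CPM in cKO (-2.08, SE 0.73). The WT276 library alone was high. H2-DMa, which loads peptides onto MHC class II, stood at 3.13, 5.10 and 0 CPM in WT and at 13.4, 13 and 15 CPM in cKO (2.27, SE 0.78). It was the member past the thresholds among 11 MHC class II genes, beside the same 3.27%. All 11 had a log2 fold change above 0, with a median of 0.35 that was -0.19 without cKO278. Over all tested genes 21164 of 35674 were above 0, with a median of 0.23. The class II chains H2-Ab1 (0.46, SE 0.63) and Cd74 (0.35, SE 0.55) overlapped between the groups, and cKO278 was their highest library.

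Redox genes went both ways. Of 20 antioxidant genes, 2 were higher and 3 lower past the thresholds, beside 3.27% and 1.44% of all tested genes. Among tested genes of at least 10 CPM these shares were 1.15% and 3.20%. The median of the list was 0.36, or 0.08 without WT276 and 0.98 without WT231. Srxn1, which encodes sulfiredoxin, stood at 35.7, 13.5 and 18.2 CPM in WT and at 7.44, 7.85 and 9.98 CPM in cKO (-1.42, SE 0.60). Gsr, glutathione reductase, stood at 18.5, 8.85 and 28.2 CPM in WT and at 8.17, 6.81 and 5.43 CPM in cKO (-1.44, SE 0.65). Nqo1, a quinone reductase, stood at 14.5, 3.90 and 15 CPM in WT and at 3.15, 1.59 and 0.0798 CPM in cKO (-2.79, SE 1.24). All 3 of these targets of NRF2 lay lower in every cKO library than in any WT library, with WT233 the nearest WT library to cKO. Of all tested genes 1.38% lay so. These 3 are the list members lower past the thresholds, while 14 of the 20 had a log2 fold change above 0. Txnrd1, thioredoxin reductase and a target of NRF2 as well, stood at 76.4, 128 and 22.9 CPM in WT and at 112, 268 and 121 CPM in cKO (1.14, SE 0.53). Txn1, the thioredoxin that it reduces, stood at 2.09, 1.35 and 0 CPM in WT and at 2.28, 4.01 and 8.46 CPM in cKO (1.95, SE 0.93). Subunits and activators of the NADPH oxidase had a median of 0.28 over 10 genes with none past the thresholds, among them Ncf1 (0.71, SE 0.48) and Cybb (0.83, SE 0.71).

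Interferon-induced genes were high in 1 library of the CL hemisphere, WT231. Type I interferon acts through a receptor that activates a complex of transcription factors, which binds the interferon response element in front of genes such as Ifit1, Ifit3 and Isg15. The 300 bases around the start site of each of these 3 genes are shown because they were high in the same library, with the core of that element, GAAANNGAAA or TTTCNNTTTC on the other strand, in capitals. They are RefSeq promoters of build GRCm38.p6, 250 bases before to 50 after the start, on the strand of the gene: Ifit1 at chr19:34640639-34640938 on the plus strand, Ifit3 at chr19:34583279-34583578 on the plus strand and Isg15 at chr4:156200769-156201068 on the minus strand.
Ifit1: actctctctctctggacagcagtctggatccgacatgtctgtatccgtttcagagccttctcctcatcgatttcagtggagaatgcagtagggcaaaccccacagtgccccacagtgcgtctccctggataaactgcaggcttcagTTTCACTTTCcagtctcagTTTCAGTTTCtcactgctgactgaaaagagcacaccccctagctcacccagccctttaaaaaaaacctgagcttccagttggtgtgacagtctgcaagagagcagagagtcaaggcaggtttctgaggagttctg
Ifit3: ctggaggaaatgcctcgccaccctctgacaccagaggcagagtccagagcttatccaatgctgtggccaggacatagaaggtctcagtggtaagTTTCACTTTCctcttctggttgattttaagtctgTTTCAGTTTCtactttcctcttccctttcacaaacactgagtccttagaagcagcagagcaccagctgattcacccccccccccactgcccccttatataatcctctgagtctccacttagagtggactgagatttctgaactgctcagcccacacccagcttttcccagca
Isg15: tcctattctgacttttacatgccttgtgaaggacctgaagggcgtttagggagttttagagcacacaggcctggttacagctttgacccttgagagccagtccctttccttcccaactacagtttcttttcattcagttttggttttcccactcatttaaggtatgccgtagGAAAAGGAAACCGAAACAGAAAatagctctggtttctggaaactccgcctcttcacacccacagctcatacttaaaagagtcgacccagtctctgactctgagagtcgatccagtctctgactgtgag
The core is found 2 times in the Ifit1 and Ifit3 promoters and 3 times, overlapping, in that of Isg15. Searched on both strands, it is present in 1131 of 32851 RefSeq promoters of this length (3.44%) and in 19 of 35 promoters (54.3%) of the 29 matched genes among the 40 on the interferon list. A match is a run of letters and not a measured binding site.

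Ifit1, an RNA-binding effector against viruses, stood at 161, 1.05 and 2.93 CPM in WT and at 3.02, 4.23 and 2.71 CPM in cKO. Ifit3, its partner, stood at 114, 5.25 and 0 CPM in WT and at 2.88, 4.72 and 9.86 CPM in cKO. Isg15, a ubiquitin-like modifier, stood at 51.1, 2.40 and 0.293 CPM in WT and at 0.737, 4.78 and 1.44 CPM in cKO. In all 3 genes WT231 was high and the other WT libraries lay within or near the cKO range. The differences were -4.05 (SE 1.14), -2.78 (SE 1.10) and -2.97 (SE 1.14), and without WT231 they were 0.92 for Ifit1, 1.09 for Ifit3 and 0.75 for Isg15. Xaf1, an interferon-induced promoter of apoptosis, was the other of 4 members past the thresholds, all lower, beside 1.44% of all tested genes. Of the 40 genes 11 had a log2 fold change above 0 in CL, with a median of -0.30. That median was 0.97 without WT231, -0.80 without WT276 and 0.27 without both. In WT276 14 of the 40 had no count, whereas all 40 had counts in each of the other CL libraries. In IL the log2 fold change was above 0 in 40 of 40, with a median of 1.44, and 13 lay past the thresholds, all higher, beside 0.334% of all tested genes.

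The WT231 library also carried transcripts of the meninges and of vessels. A list of 22 meningeal genes, chosen after seeing the data, summed to 5107, 224 and 261 CPM in WT and to 230, 519 and 206 CPM in cKO. Of its members 12 lay past the thresholds and all 12 were lower in cKO, beside 1.44% of all tested genes, which is a description since the list was chosen after its values were seen. The median of -2.49 became 0.87 without WT231. Ptgds, the prostaglandin D synthase of the arachnoid, stood at 779, 2.25 and 0.293 CPM in WT and at 8.44, 13.4 and 18.6 CPM in cKO. Igfbp6, of meningeal fibroblasts, stood at 538, 1.95 and 0 CPM in WT and at 2.41, 15.2 and 5.35 CPM in cKO. Cdh1, the epithelial cadherin that arachnoid barrier cells also express, stood at 519, 7.80 and 50.5 CPM in WT and at 13.9, 19.2 and 7.07 CPM in cKO. Each of these genes was highest in WT231, and Cdh1 in WT276 stood above all cKO libraries. Endothelial genes summed to 1688, 269 and 212 CPM in WT and to 303, 612 and 704 CPM in cKO. All 14 had counts in every CL library except WT276, where 2 had none. Cldn5, the tight junction protein of brain endothelium, stood at 76.2, 1.65 and 1.47 CPM in WT and at 2.21, 10.3 and 26.9 CPM in cKO. Whether cells of the meninges or of vessels hold the interferon-induced transcripts of WT231 was not tested.

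Of 20 genes of infiltrating monocytes, 3 were higher and 1 lower in cKO past the thresholds, beside 3.27% and 1.44% of all tested genes. Their median was 0.63, with 13 above 0, and it was 1.27 without WT231 and 0.37 without WT233. They summed to 6428, 303 and 419 CPM in WT and to 436, 999 and 871 CPM in cKO. Much of the larger sums was the 1 member Fn1, with 5976 CPM in WT231, 512 CPM in cKO272 and 404 CPM in cKO278. Chil3, which encodes the lectin Ym1, stood at 1.04, 1.80 and 0 CPM in WT and at 5.63, 9.33 and 10.7 CPM in cKO (3.04, SE 0.90). Plac8 stood at 0, 0.900 and 0 CPM in WT and at 3.95, 1.43 and 1.96 CPM in cKO (2.99, SE 1.25). Ms4a4c had no count in any WT library and stood at 0.536, 0.823 and 1.20 CPM in cKO, at least 6.67-fold above the level that 3 counts over the WT group allow. Chil3 had 84 to 268 counts in each cKO library and 0 to 14 in each WT library, while Plac8 had 6 and Ms4a4c 0 counts over the WT group. Of the 1166 genes higher past the thresholds, 705 were under 1 CPM. Of the 20 members, 9 had no count in WT276 and 3 had none in WT231. Of the defining monocyte genes, Ccr2 and Ly6c2 did not pass the thresholds, and Vcan, another of them, is not reported here. Ccr2, the receptor for the chemokine that draws monocytes, stood at 16.7, 10.5 and 12.3 CPM in WT and at 16.1, 8.23 and 31.2 CPM in cKO (0.49, SE 0.80). Ly6c2 stood at 0.149, 3.60 and 15.8 CPM in WT and at 5.09, 1.65 and 2.51 CPM in cKO (-1.05, SE 1.04), a difference that was 0.69 without WT276 and 0.21 with limma-voom. Fn1, fibronectin, is on the list as well and was the lower member, at 5976, 73.2 and 143 CPM in WT and 147, 512 and 404 CPM in cKO, its value in WT231 standing beside the meningeal genes above. The neutrophil genes summed to 327 to 652 CPM over the 6 libraries. S100a8 of neutrophils was at most 5.60 CPM, Cd3e of T cells at most 6.60 CPM and Hbb-bs of red cells at most 4.59 CPM.

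Among the markers of neurons and glia, 2 of 14 astrocyte genes and 1 of 14 oligodendrocyte genes were lower in cKO past the thresholds. Of all tested genes 1.44% were so, and 3.20% of those of at least 10 CPM. None of 20 neuronal genes or 13 genes of oligodendrocyte precursors passed. The astrocyte list had a median of -0.49, or 0.52 without WT231, with 5 of 14 above 0. The medians were -0.36 for the precursors, -0.10 for neurons and -0.04 for oligodendrocytes, and those of neurons and oligodendrocytes turned to 0.08 and 0.40 without WT276. Neuronal genes summed to 166, 309 and 485 CPM in WT and to 313, 206 and 218 CPM in cKO, astrocyte genes to 1348, 633 and 563 CPM and to 624, 851 and 1096 CPM, and oligodendrocyte genes to 406, 135 and 605 CPM and to 191, 215 and 250 CPM. The astrocyte genes past the thresholds were Slc4a4, described above, and Gja1, the gap junction connexin that fibroblasts also express. Gja1 was highest in WT231 and stood at 13.5 and 7.04 CPM in the other WT libraries and at 12.9, 36.5 and 20.2 CPM in cKO (-1.87, SE 0.85, or 1.25 without WT231). Red cell and platelet genes had the highest median of the lists that were not chosen after seeing the data, 1.24 with 9 of 11 above 0, at summed levels of 32.1 to 44.5 CPM in WT and 46.7 to 75.4 CPM in cKO. Their median was 0.43 without WT231 and WT276 and 2.40 without WT233.

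The same contrast in the lesioned hemisphere had another balance. In IL, 119 genes (0.334%) were higher and 723 (2.03%) lower in cKO by the study's thresholds, and the median log2 fold change over all tested genes was -0.24. No gene passed the test of the interaction of genotype and hemisphere at an adjusted p under 0.05 in edgeR (0 of 35674, 0%). An unadjusted p under 0.05 was reached by 1355 genes, and DESeq2 called 4, which were Gm23485, Tcstv3, Gm20770 and AC161383.1, named here after their values were seen. Among the genes described above the lowest interaction p was that of Ifit1 (0.000517, adjusted p = 1), which differed by -4.05 in CL and by 2.19 in IL. For Ttr it was 0.00144, with 7.06 in CL and 0.68 in IL. Genes of the leading lower set with an interaction p under 0.05 included Lars2 (0.00792) and Trim12c (0.00775), which stood at 0.68 and 0.55 in IL. Tlr13 and Msr1 had differences of 1.42 and 1.19 in IL, and Gpc6 had -1.59, each with the sign it had in CL. None of these differences between the hemispheres passed after the adjustment over all genes.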

How the data were processed

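RNA of P2RY12+ cells was made into stranded total RNA libraries and sequenced by the authors. Per the labels and the methods of the study, adapters, low-quality bases and reads of rRNA and mitochondrial DNA were removed, and STAR (version 2.5.3a, run within version 8.0 of Partek Flow) aligned the rest to mm10. The authors deposited raw counts per gene, with no normalization, and compared groups with DESeq2. Of the 53801 gene identifiers 53620 were found in GENCODE vM21, and no column was left without a sample or group. The columns name a group and a number, but the labels do not tie the number to a sample, so that a column is a replicate of its group only.

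All 12 libraries were fitted together with edgeR 4.0.16 (R 4.3.3, filterByExpr on the 4 groups, TMM scaling, quasi-likelihood test, Benjamini-Hochberg over 35674 tested genes). The contrasts were cKO over WT in CL, the same in IL, and their difference. Intervals are the difference ± 1.96 SE. The thresholds of the study were a change of more than 2-fold and p under 0.05 before adjustment. Alternatives used DESeq2 1.42.0, limma-voom with quality weights (limma 3.58.1), other scalings and filters, the CL libraries alone, thinned libraries, a sensory receptor covariate and single libraries left out.

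Named genes were the 15 genes per direction of lowest p among non-overlapping genes of at least 10 CPM that are neither gene models nor sensory receptors, up to 4 members of lowest p in each of 51 gene lists, the defining markers of cell types, and genes of at least 10 CPM called by DESeq2 or without 1 library. Other list members that are named were picked for their function, and some genes that the rule names are not reported here. The libraries and the gene lists were chosen with earlier results of these data known. The meningeal and choroid plexus lists, the omission of WT231 and WT276 together and a block on the column numbers for the interaction were chosen after seeing the data. Promoters are from RefSeq (GRCm38.p6), matched by symbol. Levels of few counts are limited by depth, and a floor of 3 counts over the group was used where a group had none.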

Additional observations from a re-analysis of the deposited data

How the results depend on the processing

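No paired analysis was possible of cKO over WT in CL because the groups share no number. A CL and an IL column do share a number, which no label ties to an animal, and the main fit treats them as independent. With that number as a replicate block, added after seeing the data, the interaction again called 0 genes in edgeR (1073 at an unadjusted p under 0.05, against 1355). The deviations of same-numbered libraries from their group means correlated at -0.13 to 0.21 across genes. The count of genes past an adjusted p under 0.05, 0 in edgeR, was 22 with no filter and 27 in DESeq2, ran from 0 to 29 when a single CL library was left out, and was 0 under the other alternatives. The 29 came without WT233, and the cause was not tested. Of the named genes, 0 were called, against 15 with no filter, 6 in DESeq2 and 0 to 2 with a library left out. The thresholds of the study were met by 1680 genes (1166 higher, 514 lower). They were met by 471 genes (105 higher, of which 80 were among the 1166) with at least 10 counts required in every library, by 560 (249 higher, 236 shared) with the CL libraries fitted alone, by 794 (496 higher, 403 shared) with limma-voom and by 712 (321 higher, 303 shared) without gene models and sensory receptors. After thinning they were met by 306 (170 higher, 94 shared), and without WT231 and WT276, where the spread comes from the other groups, by 503 (335 higher, 122 shared). The lower genes of these settings were 366, 311, 298, 391, 136 and 168, of which 255, 281, 84, 294, 95 and 44 were among the 514. The settings with a count minimum, with the CL libraries alone, without gene models and after thinning also test fewer genes. The lower count was 1002 with TMM factors from genes of at least 50 CPM, 1009 with no filter and 1084 in DESeq2. With a single CL library left out the total ran from 1016 to 6523, the higher genes from 773 to 5547 and the lower genes from 191 to 976. The upper ends all came without WT233. The interaction called 4 genes in DESeq2 and 0 in edgeR under each scaling and each library left out, with 818 to 5990 genes at an unadjusted p under 0.05 over the libraries left out.

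Of the 51 lists, 38 had a median above 0, and 30 to 47 did over the 18 alternatives. Of 918 list medians under alternatives, 836 moved by less than 1 SD of the list's mean level between libraries. Among 95 genes named in the text, 1682 values were computed under alternatives, and 20 had the opposite sign to a difference at least as large as its SE. Many of these genes were chosen by a low p, and the leading ones also by groups that do not overlap. For the leading genes the sign was fixed in advance when libraries were left out. The count of 20 is therefore a description and does not measure how stable the signs are. Over the omission of single CL libraries, the differences ran from -3.21 to 1.59 for Car13, from -4.69 to 0.92 for Ifit1, from -3.41 to 1.09 for Ifit3, from -4.04 to 0.75 for Isg15, from -2.46 to 1.25 for Gja1 and from -3.84 to 0.00 for Col3a1, with the upper end without WT231. They ran from -1.53 to 0.69 for Ly6c2, from -2.82 to 0.61 for Cxcl14 and from -3.04 to 0.38 for Nusap1, with the upper end without WT276. Without WT231 and WT276 together they were 1.02 for Car13, 1.63 for Ifit1, 0.16 for Ifit3, 0.49 for Ndufa13 and Xaf1, 0.14 for Slc4a4, 0.78 for Gja1, 0.02 for Cxcl14, 0.33 for Nusap1 and 0.10 for Padi4. With limma-voom the difference was 0.21 for Ly6c2.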

Other observations

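Receptors and clearance genes outside the groups described above were read against the 3.27% of all tested genes that were higher and the 1.44% that were lower past the study's thresholds. Among 17 myeloid C-type lectins, 2 were higher in cKO CL past them and 8 had a log2 fold change above 0, with a median of -0.04. Clec4e, the receptor Mincle for debris of dead cells and mycobacterial lipid, stood at 3.28, 1.5 and 1.17 CPM in WT and at 10.8, 5.27 and 4.47 CPM in cKO (1.73, SE 0.73), without overlap. Klrb1b stood at 0.597, 0.150 and 0 CPM in WT and at 3.02, 1.48 and 3.91 CPM in cKO, with 0 to 8 counts in each WT library. Among 21 autophagy genes Atg5, which serves the growth of the autophagosome membrane, was the member past the thresholds (1.44, SE 0.69), and WT233 lay inside its cKO range. Atg7, the activating enzyme of the same conjugation system, stood at 16.6, 37.9 and 22 CPM in WT and at 41.7, 64.3 and 39.2 CPM in cKO (0.92, SE 0.47). The groups of Atg7 did not overlap, but it did not pass the thresholds. None of the 18 transcription factors of microglia, 14 purine receptors and ectonucleotidases, 16 ion channels, 15 complement genes or 10 Fc receptors passed, with medians of 0.26, 0.31, 0.24, 0.21 and 0.52. The median of the complement genes was -0.09 with TMM factors from genes of at least 50 CPM. Without WT276 the medians were -0.05 for the transcription factors and -0.06 for the Fc receptors.

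In some of the genes lower in cKO past the thresholds WT276 was the highest library. Nusap1, a protein of the mitotic spindle and the member past the thresholds among 30 cell cycle genes, stood at 2.16, 2.40 and 49.3 CPM in WT and at 6.23, 0.933 and 2.63 CPM in cKO (-2.44, SE 1.03). Cxcl14, a chemokine, stood at 2.09, 6.15 and 77.5 CPM in WT and at 4.36, 3.62 and 10.9 CPM in cKO (-2.16, SE 0.98). Padi4, the enzyme that citrullinates histones in neutrophils, stood at 22.1, 9.60 and 73.9 CPM in WT and at 15.9, 8.23 and 8.38 CPM in cKO (-1.70, SE 0.74). Without WT231 and WT276 the differences were 0.33 for Nusap1, 0.02 for Cxcl14 and 0.10 for Padi4. Col3a1, a fibrillar collagen of fibroblasts, stood at 461, 24.3 and 12.9 CPM in WT and at 14.7, 27.3 and 11.6 CPM in cKO (-3.22, SE 0.97), and its high library was WT231.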
